A study of Rattus norvegicus with 6 samples.

Results

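The mitochondrial ribosomal protein genes were taken as the symbols of the deposited table that begin with Mrpl or Mrps, followed by a number and at most a letter from a to c, with at least 1 FPKM (a fragment count scaled to transcript length and library size) in 3 or more of the 6 libraries. Of 75 matching symbols 74 met this minimum, among 22608 symbols in all and 12373 that met it. By symbol, 46 belong to the large and 28 to the small ribosomal subunit. The remaining symbol, Mrps28, was listed at 0 in all 6 libraries and was not tested. Whether it is not expressed or its estimate failed cannot be told from these values, and the small subunit values lack it. Mrpl9, Mrpl11 and Mrpl24 were not found under these symbols, so the large subunit values lack them. The members with the lowest means, Mrpl30 and Mrpl1, stood at 2.80 to 3.21 and at 3.68 to 5.27 FPKM across the libraries. All 74 members reached it in all 6 libraries, so none entered through a single group.

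The libraries came from primary astrocytes of rat brain. There were 3 control libraries and 3 from cells given β-hydroxybutyrate (BHB), a ketone body made by the liver when carbohydrate is short. The table's headings give the dose as 2 mM. Neither the labels nor the headings give the duration of treatment or the age of the animals. They also leave unsaid whether the libraries are separate cultures, so the p-values reflect the spread among these 6 libraries, which may be technical.

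Mitochondria keep their own ribosome, which makes the few respiratory chain subunits that mitochondrial DNA encodes. Its proteins are all encoded in the nucleus, made in the cytosol and imported. Some descend from bacterial ribosomal proteins and others have no bacterial counterpart. BHB itself is oxidised in mitochondria. Placement in the ribosome is given below from structural work on mammalian mitoribosomes, as background.

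The sum of all FPKM ran from 354565 to 367448 per library, and the read depth behind the values is unknown. The 10 astrocyte markers all reached the minimum. They summed to 4647 to 4902 FPKM in controls and 5051 to 5073 FPKM with BHB, or 4440 to 4705 and 4583 to 4621 FPKM without Slc1a3, a glutamate transporter gene that passed the test used below. Fibroblast and mural markers were also abundant (4166 to 4539 and 4349 to 4697 FPKM), through Tagln, Acta2 and Col1a1, while Dcn and Lum lay under the minimum. Microglia (5 of 6 markers at the minimum), neuron (4 of 5) and oligodendrocyte lineage markers (4 of 6) summed to at most 22.3, 31.4 and 23.2 FPKM. Endothelial markers (0 of 3) summed to at most 0.380 FPKM, with Cldn5 listed at 0. Their part in the values below was not tested.

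Promoter stretches are shown first because these genes are often described as targets of the transcription factors NRF1 and GABP (an ETS family factor), and because some share a promoter region. They come from RefSeq (GRCr8 build, while the submitters name rn6 for their own processing). Of the 74 members, 60 had an entry. The 250 bases before each start were searched on both strands for a 10-letter NRF1 palindrome (the capitals in Mrpl17), ETS (CCGGAAG), YY1 (AAGATGGCG) and E-box (CACGTG) letters. Stretches are cut where a head-to-head neighbour starts, run 5′ to 3′ on the member's strand, and show the matches in capitals. The first 4 hold the NRF1 letters, Mrpl30 is the least abundant member, Mrps7 was among the members with the largest differences, and the last lies between the starts of Mrpl46 and Mrps11.
Mrpl17, chr1:169575700-169575949, minus strand: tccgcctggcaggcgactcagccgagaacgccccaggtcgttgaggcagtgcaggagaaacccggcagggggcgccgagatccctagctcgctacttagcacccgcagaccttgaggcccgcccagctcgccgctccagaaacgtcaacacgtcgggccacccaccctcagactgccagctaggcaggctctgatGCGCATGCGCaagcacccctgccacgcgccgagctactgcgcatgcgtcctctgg
Mrpl44, chr9:88554800-88555049, plus strand: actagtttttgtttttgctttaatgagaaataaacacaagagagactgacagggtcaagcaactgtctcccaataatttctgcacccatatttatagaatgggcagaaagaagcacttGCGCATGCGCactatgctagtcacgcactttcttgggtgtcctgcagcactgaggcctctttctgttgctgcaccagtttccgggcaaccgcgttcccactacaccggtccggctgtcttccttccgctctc
Mrpl32, chr17:55260442-55260650, plus strand: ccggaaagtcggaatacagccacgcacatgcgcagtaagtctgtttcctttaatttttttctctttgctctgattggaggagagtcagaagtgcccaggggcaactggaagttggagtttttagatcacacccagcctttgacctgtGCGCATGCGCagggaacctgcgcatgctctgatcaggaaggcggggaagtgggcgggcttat
Mrps18b, chr20:2842756-2843005, plus strand: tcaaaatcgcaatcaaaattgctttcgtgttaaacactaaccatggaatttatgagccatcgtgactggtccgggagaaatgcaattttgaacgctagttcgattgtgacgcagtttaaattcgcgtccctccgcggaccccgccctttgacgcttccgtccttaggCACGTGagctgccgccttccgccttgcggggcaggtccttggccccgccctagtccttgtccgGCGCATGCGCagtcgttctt
Mrpl30, chr9:47621034-47621226, plus strand: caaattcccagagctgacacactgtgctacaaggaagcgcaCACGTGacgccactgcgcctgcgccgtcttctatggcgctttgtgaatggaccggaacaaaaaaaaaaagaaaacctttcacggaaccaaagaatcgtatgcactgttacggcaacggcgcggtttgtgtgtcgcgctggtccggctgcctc
Mrps7, chr10:101342392-101342641, plus strand: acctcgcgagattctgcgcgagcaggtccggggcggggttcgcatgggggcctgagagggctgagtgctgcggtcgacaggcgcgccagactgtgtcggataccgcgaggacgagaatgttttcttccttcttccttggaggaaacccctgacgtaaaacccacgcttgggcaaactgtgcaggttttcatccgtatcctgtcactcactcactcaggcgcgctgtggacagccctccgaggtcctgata
Mrpl46 with Mrps11, chr1:142117031-142117263, minus strand: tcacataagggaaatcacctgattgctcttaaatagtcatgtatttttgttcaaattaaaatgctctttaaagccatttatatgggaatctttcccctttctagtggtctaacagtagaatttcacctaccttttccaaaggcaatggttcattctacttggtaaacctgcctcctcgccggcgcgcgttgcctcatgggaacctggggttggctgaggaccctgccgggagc

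The NRF1 letters stood in 4 of the 60 member promoters (6.67%), against 0.849% of 27457 promoters of the same length and 1.86% of the 9048 whose genes were tested. The ETS letters stood in 13 (21.7%), against 7.74% and 15.6%, but also in 17 of 65 promoters of tested cytosolic ribosomal protein genes (26.2%) and 14 of 49 of nuclear respiratory chain genes (28.6%). For the NRF1 letters these sets had 0 of 65 and 1 of 49. The E-box letters stood in 4 (6.67%), against 5.79% and 8.22%, and the YY1 letters in 1 (Mrpl36), against 0.736% and 1.38%. A YY1 form with 10 letters, searched first, stood in 0, and the motif was shortened to 9 letters after that count was seen. No member held both the NRF1 and the ETS letters. A match is a description of these letters, not of a binding site, and 42 members held none of the 4 motifs in this window.

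The 74 genes were expressed at moderate and unequal levels. Their mean over the 6 libraries ran from 2.93 to 69.6 FPKM, a 23.7-fold range, with a median of 19.3 FPKM. The median of all genes tested was 10.6 FPKM. Large and small subunit genes were alike in this, with medians of 20.7 and 18.0 FPKM. Among large subunit genes the highest was Mrpl17, a protein of the bacterial type at the exit of the peptide tunnel, at 66.5, 67.7 and 72.3 FPKM in controls and 70.6, 71.7 and 69.1 FPKM with BHB. It was followed by Mrpl49, a subunit without bacterial counterpart, at 44.2 to 49.1 FPKM, and by Mrpl13, at 38.02 to 48.3 FPKM. The lowest were Mrpl30, Mrpl1 and Mrpl47, the last at 5.02 to 6.63 FPKM.

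Among small subunit genes by symbol the highest were Mrps18a (39.7 to 45.8 FPKM), Mrps21 (34.7 to 38.2 FPKM) and Mrps7 (30.2 to 41.8 FPKM). The lowest were Mrps27 (5.40 to 7.14 FPKM), Mrps35 (5.94 to 8.68 FPKM) and Mrps31 (8.74 to 11.4 FPKM). Proteins of the bacterial type and those particular to mitochondria had similar median levels, at 20.9 (27 genes) and 20.4 FPKM (21 genes) in the large subunit and 16.8 (15 genes) and 21.4 FPKM (10 genes) in the small. In that division Mrps30 and Mrps18a count with the large subunit, where structures place them despite their symbols. The division counts Mrps18a and Mrps18b with the proteins particular to mitochondria, although both are relatives of bacterial S18, and Mrps18c with the bacterial type. Mrps36, at 15.5 to 17.7 FPKM, is left out of the division, since its product is an adaptor of the 2-oxoglutarate dehydrogenase complex.

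**Figure D1:**
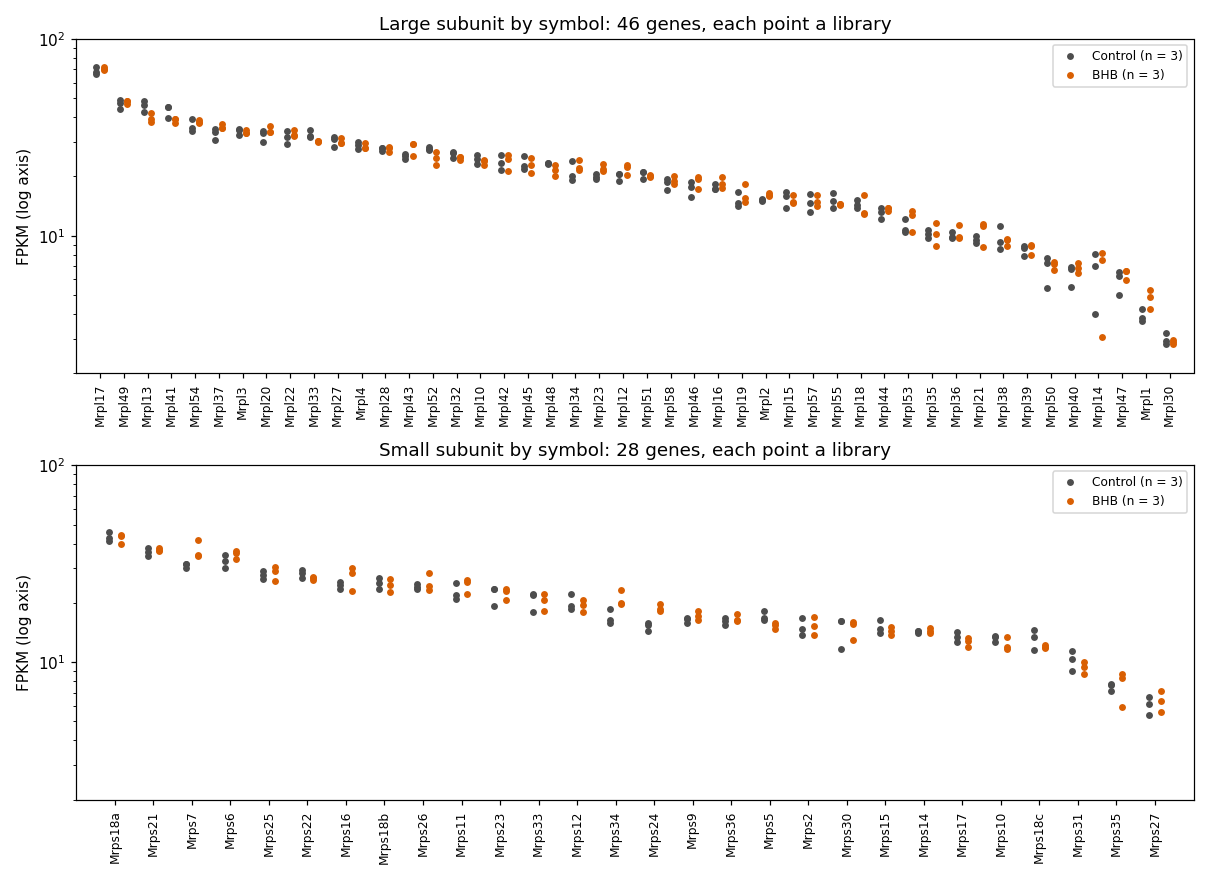
FPKM (log axis) of the 46 large and 28 small subunit genes, ordered by mean level, with a point for each of the 3 control (grey) and 3 BHB (orange) libraries. Levels fall from 69.6 FPKM for Mrpl17 to 2.93 FPKM for Mrpl30, while the points of a gene mostly lie close together; Mrpl14 has the widest spread.

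The value of a gene was far more stable between libraries than between genes. The highest library exceeded the lowest by a median factor of 1.20. Mrps14, a small subunit protein of the bacterial type, was the steadiest at 1.06. Mrpl14 was the only member above 1.5, at 2.66. It stood at 3.99, 8.10 and 6.99 FPKM in controls and 8.13, 3.06 and 7.53 FPKM with BHB, so that a library of each group was low. Mrps30 had the largest spread within groups among small subunit genes by symbol, with Control 3 (11.6 FPKM) and BHB 1 (13.0 FPKM) under the other libraries (15.6 to 16.1 FPKM).

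The spread differed with how the values were written. For 45 members the deposited values had at most 6 decimals, and for 29 (39.2%, against 57.4% of all genes tested) they had more. The former had a median of 1 transcript listed in RefSeq and a median coefficient of variation within groups of 5.54%, the latter 3 transcripts and 9.11%. Their levels differed too, with medians of 22.5 and 14.7 FPKM, and the part of each in the spread was not tested. Mrpl14, with 6 listed transcripts, belongs to the latter. RefSeq lists pseudogenes of 23 members, 9 of them for Mrpl30. No source used here says how reads shared with such copies, or split between transcripts, were handled, and the levels of these members are uncertain for that reason.

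As sums, the subunits were level between the groups. The large subunit genes summed to 993.2, 1014 and 974.5 FPKM in controls and 1004, 1000 and 997.0 FPKM with BHB (994.0 ± 19.9 and 1000.2 ± 3.25, SD, n = 3 each). The small subunit genes summed to 571.7, 579.3 and 538.5 FPKM in controls and 576.6, 599.6 and 562.6 FPKM with BHB (563.2 ± 21.7 and 579.6 ± 18.7, SD, n = 3 each). In both subunits the groups overlapped and the difference of the means was smaller than the SD of the controls. The ratio of the large to the small sum was 1.77 ± 0.0386 in controls and 1.73 ± 0.0535 with BHB (SD, n = 3 each). These sums and ratios are by symbol. By structure, Mrps30 and Mrps18a count with the large subunit and Mrps36 is left out. The large sums were then 1052, 1076 and 1028 FPKM in controls and 1056, 1060 and 1057 FPKM with BHB. The small sums were 495.9, 501.9 and 469.3 FPKM in controls and 506.4, 523.6 and 486.6 FPKM with BHB. The groups overlapped here too. In such cultures, fewer cells of a type and less RNA per cell cannot be told apart.

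**Figure D2:**
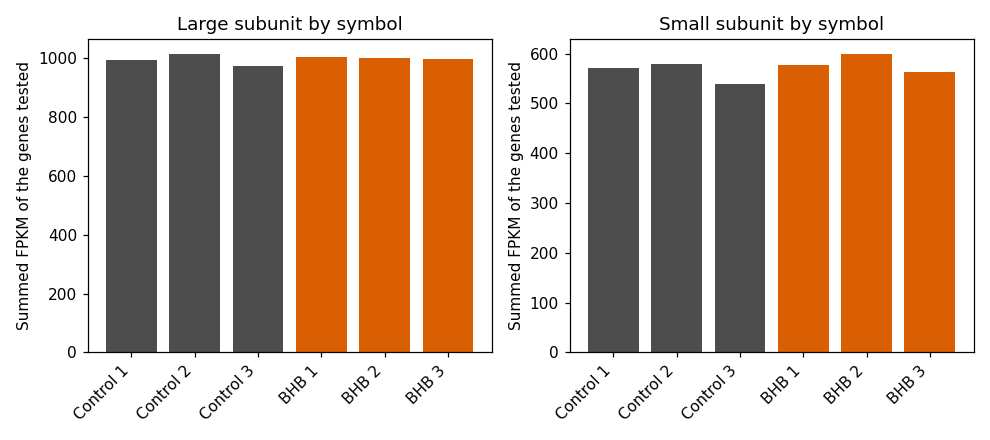
Summed FPKM of the large (left) and small (right) subunit genes in each library, with bars from 0, controls in grey and BHB in orange. The bars of both groups are of nearly equal height, at 974.5 to 1014 FPKM for the large and 538.5 to 599.6 FPKM for the small subunit.

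The comparison of BHB with control asked whether any of these genes changed. None of the 74 passed the test. It was limma on log2(FPKM + 1), with p-values adjusted over all genes tested, and the lowest adjusted p among members was 0.640. Across all genes 7 passed (0.0566%), of which 6 were higher (0.0485%) and 1 lower (0.00808%) with BHB. At an unadjusted p under 0.05 there were 10 members, 5 higher and 5 lower with BHB, or 13.5% of 74, against 692 genes or 5.59% of all genes tested and 5.63% of those within the members' range of levels. By direction the share over all genes tested was 3.45% higher and 2.14% lower. Of the 10, 6 were large and 4 small subunit genes, and their groups did not overlap. Without Control 1 the number was 5, and the share of all genes in that fit is not given here. Groups did not overlap in 13 members (17.6%), 7 with BHB above and 6 with BHB below, against 10.9% of all genes tested (6.43% above and 4.45% below) and 11% of those within the members' range of levels.

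The differences of the members were small and lay on both sides of 0. In the large subunit 27 of 46 genes had a log2 fold change (BHB over control) above 0, with a median of 0.028. In the small subunit 17 of 28 were above 0, with a median of 0.018. Over all genes tested 51.5% were above 0, with a median of 0.0029. Without Control 3 both medians turned, to -0.0039 and -0.013, and that of the small subunit also turned without BHB 2, to -0.019. Control 3 held the lowest value of 23 of the 74 members (31.1%), and of 20.3% of all genes tested. In 51 members the log2 fold change was within 0.1 of 0. The 95% interval lay within 0.5 of 0 in 73 members, and Mrpl14 was the exception, with an interval of -0.81 to 0.68.

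**Figure D3:**
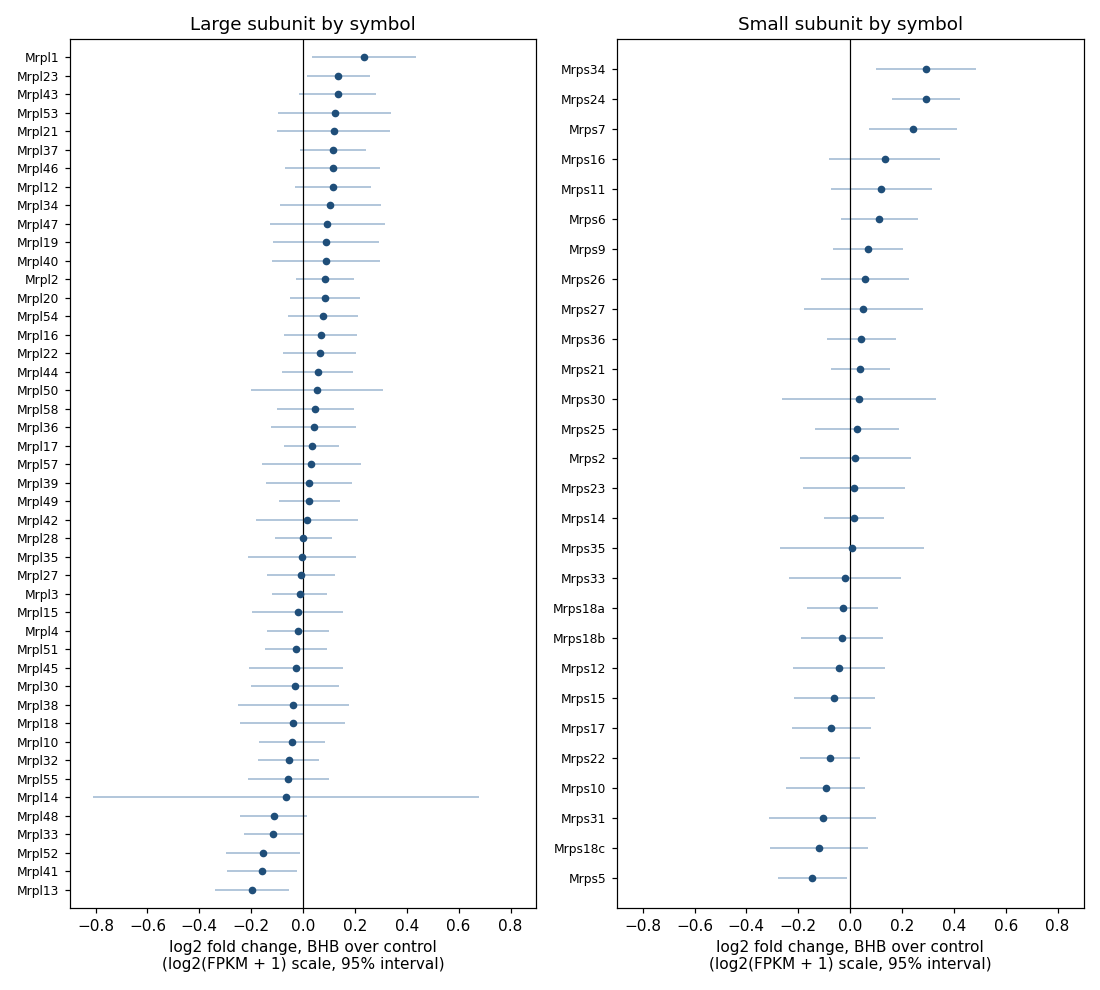
Log2 fold change of BHB over control on the log2(FPKM + 1) scale for each large (left) and small (right) subunit gene, with its 95% interval from limma. Points lie between -0.20 (Mrpl13) and 0.29 (Mrps34), and the interval of Mrpl14 is by far the widest.

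The small subunit genes with the smallest p were Mrps24, Mrps34 and Mrps7, all with higher values under BHB. Mrps24 encodes the mitochondrial form of the ribosomal protein uS3, which lines the entry of the mRNA channel. It stood at 14.4, 15.7 and 15.5 FPKM in controls and 18.7, 19.7 and 18.2 FPKM with BHB. All BHB libraries lay above all controls, by a ratio of means of 1.24. The log2 fold change was 0.29 (SE 0.0571, 95% interval 0.16 to 0.42, limma adjusted p = 0.640).

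Mrps34, a subunit without bacterial counterpart that small subunit assembly needs, stood at 15.7, 18.7 and 16.3 FPKM in controls and 19.7, 23.2 and 19.9 FPKM with BHB. The groups did not overlap, though Control 2 was closest to BHB 1. The log2 fold change was 0.29 (SE 0.0842, limma adjusted p = 0.881). Mrps7, the mitochondrial uS7 in the head of the subunit, stood at 31.7, 30.2 and 31.5 FPKM in controls and 34.5, 41.8 and 35.1 FPKM with BHB. BHB 2 was well above the other BHB libraries. The log2 fold change of 0.24 (SE 0.0740, limma adjusted p = 0.881) was 0.16 without that library.

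Mrps5, the mitochondrial uS5 on the entry side of the mRNA channel, went the other way. It stood at 16.8, 18.1 and 16.3 FPKM in controls and 15.5, 14.8 and 15.8 FPKM with BHB, so that the groups were adjacent without overlapping (log2 fold change -0.15, limma adjusted p = 0.881). The other tested genes listed for the mRNA path, Mrps11 and Mrps12, had overlapping groups, at 20.9 to 26.1 and 18.0 to 22.1 FPKM. Mrps28, also listed for it, was not tested. Of the 5 tested genes of this path 3 lay above 0 and 2 below. Further small subunit genes with the smallest p were Mrps6 (log2 fold change 0.11) and, below 0, Mrps22 (-0.08), Mrps18c (-0.12) and Mrps10 (-0.09), with limma adjusted p of 0.890 to 0.898 and overlapping groups. Single libraries moved all 4 values. Mrps6 was 0.057 without Control 3 and Mrps22 -0.047 without Control 1. Mrps18c was -0.049 without Control 2 and -0.21 without Control 3, and Mrps10 -0.057 without BHB 3 and -0.15 without BHB 1.

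In the large subunit the smallest p belonged to Mrpl13, the mitochondrial uL13, which was lower with BHB. It stood at 42.3, 48.3 and 46.3 FPKM in controls and 39.0, 38.02 and 42.0 FPKM with BHB. The highest BHB library lay just under the lowest control. The log2 fold change was -0.20 (SE 0.0623, 95% interval -0.34 to -0.05, limma adjusted p = 0.881). Mrpl41, a subunit without bacterial counterpart, stood at 44.9, 44.8 and 39.6 FPKM in controls and 37.4, 39.2 and 38.9 FPKM with BHB (log2 fold change -0.16, limma adjusted p = 0.881). Control 3 stood close to the BHB libraries. Mrpl33, the mitochondrial bL33, was at 31.7 to 34.5 FPKM in controls and 30.0 to 30.2 FPKM with BHB (log2 fold change -0.11, limma adjusted p = 0.881).

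Mrpl1, which forms the mobile L1 stalk beside the exit site for transfer RNA, had the largest difference above 0 in the large subunit. It stood at 3.82, 3.68 and 4.26 FPKM in controls and 4.27, 5.27 and 4.85 FPKM with BHB, and Control 3 and BHB 1 were nearly equal. The log2 fold change was 0.23 (SE 0.0879, limma adjusted p = 0.881). The genes of the other stalk, where translation factors bind, had overlapping groups. These were Mrpl10, its base, at 22.9 to 25.7 FPKM, and Mrpl12, its mobile part, at 18.9 to 22.9 FPKM. Mrpl11, also listed for the stalks, was not found under that symbol.

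The 4 genes around the peptidyl transferase centre, where peptide bonds form, differed little. Mrpl2, Mrpl16, Mrpl27 and Mrpl3 had means of 15.7, 18.1, 30.3 and 33.8 FPKM and 95% intervals that ran from -0.14 to 0.21 in all. Mrpl2 was tight enough within groups for these not to overlap, at 14.9, 15.2 and 15.4 FPKM in controls and 16.1, 16.4 and 15.9 FPKM with BHB. Of the 5 tested genes at the tunnel exit, where the new peptide leaves the ribosome, 4 lay above 0. Among these Mrpl23 stood at 19.9, 20.6 and 19.3 FPKM in controls and 21.2, 23.1 and 21.8 FPKM with BHB (log2 fold change 0.14, limma adjusted p = 0.881). Mrpl45, which tethers the ribosome to the inner membrane, was at 20.9 to 25.5 FPKM and Mrpl22 at 29.3 to 34.4 FPKM, with overlapping groups.

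The central protuberance is a landmark of the large subunit that contacts the small one. Of the 6 genes listed for it here, which need not be all, 2 lay above 0, with a median of -0.039. Mrpl52 stood at 28.2, 27.5 and 27.2 FPKM in controls and 22.9, 26.7 and 24.7 FPKM with BHB (log2 fold change -0.15, limma adjusted p = 0.881), and the log2 fold change was -0.10 without BHB 1. Mrpl48 was at 23.1 to 23.5 FPKM in controls and 20.2 to 22.9 FPKM with BHB, with groups that did not overlap. The remaining 4, Mrpl18, Mrpl38, Mrpl40 and Mrpl46, overlapped. Outside these sites, Mrpl37 and Mrpl43 had log2 fold changes of 0.12 and 0.13 (limma adjusted p = 0.881 each), and the groups overlapped in Mrpl43 but not in Mrpl37. Without Control 3 the value of Mrpl37 was 0.069.

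In the 13 members with non-overlapping groups, the exact permutation test (two-sided, difference of means) gave p = 0.1, the smallest that 3 against 3 allows. Groups that do not overlap always give this value, so it adds nothing to their selection.

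**Figure D4:**
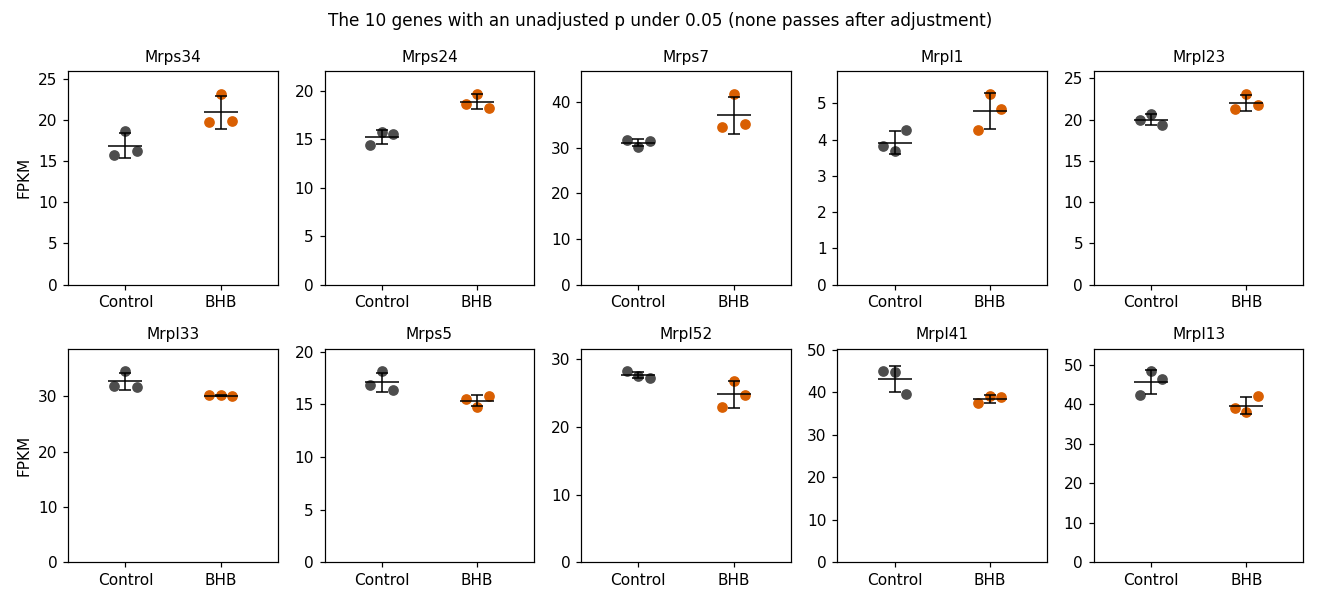
FPKM of the 10 members with an unadjusted p under 0.05, with points for libraries, and the mean and SD of each group (n = 3) in black, on axes from 0. The 5 genes of the upper row are higher and the 5 of the lower row lower with BHB; the steps are small beside the levels, and none passed after adjustment.

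The 3 relatives of bacterial S18 differ in place and level. Mrps18c and Mrps18b sit in the small subunit and Mrps18a in the large one. Their means were 12.6, 24.9 and 42.9 FPKM, and the ranges of their libraries did not overlap, at 11.5 to 14.6, 22.7 to 26.7 and 39.7 to 45.8 FPKM. None differed between the groups beyond the spread of the libraries. The log2 fold changes were -0.12 (95% interval -0.31 to 0.07), -0.03 (-0.19 to 0.13) and -0.03 (-0.17 to 0.11). The last 2 lay above 0 without BHB 1 or without Control 2.

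Mrpl46 and Mrps11, a gene of each subunit, lie head to head with 234 bases between their starts. Mrpl46, in the central protuberance, stood at 18.8, 17.7 and 15.7 FPKM in controls and 19.97, 19.4 and 17.3 FPKM with BHB. Mrps11, by the path of the mRNA, stood at 20.9, 25.2 and 21.8 FPKM in controls and 26.1, 25.6 and 22.3 FPKM with BHB. Groups overlapped in both genes, and neither passed (log2 fold changes 0.11 and 0.12, limma adjusted p = 0.898 each). The printed stretch between them holds none of the 4 motifs.

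Other genes of mitochondrial translation did not pass either. The 5 mitoribosomal proteins with other symbols (Dap3, Chchd1, Aurkaip1, Ptcd3 and Gadd45gip1) had 4 of 5 above 0 and a median of 0.080. The largest was Chchd1, at 37.0 to 42.7 FPKM in controls and 41.7 to 45.7 FPKM with BHB (log2 fold change 0.12, limma adjusted p = 0.890). Of 25 assembly factors, which process ribosomal RNA and join the subunits, 16 were above 0, with a median of 0.060. The smallest p was that of Rpusd3, a pseudouridine synthase relative, at 3.58, 4.35 and 4.08 FPKM in controls and 3.29, 3.62 and 3.23 FPKM with BHB (limma adjusted p = 0.881).

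Of 16 translation factors 7 were above 0, with a median of -0.0043, and 2 had an unadjusted p under 0.05 (12.5%, against 5.59% of all genes tested). Tsfm, the exchange factor of the mitochondrial elongation factor Tu, stood at 6.38, 6.87 and 6.79 FPKM in controls and 7.93, 8.46 and 10.5 FPKM with BHB. BHB 3 was the highest by far, and all BHB libraries lay above all controls. The log2 fold change was 0.37 (SE 0.0974, limma adjusted p = 0.881). Mrrf, which recycles ribosomes after termination, stood at 6.47, 6.08 and 5.94 FPKM in controls and 5.01, 5.79 and 4.91 FPKM with BHB (log2 fold change -0.20, limma adjusted p = 0.881).

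Genes of mitochondrial transcription and replication (6 of 8 above 0, median 0.037) and regulators of mitochondrial gene programmes (3 of 8 above 0, median -0.0027) had 0 members with an unadjusted p under 0.05 in limma. Nrf1 averaged 5.66 FPKM in controls against 5.52 FPKM under BHB. Gabpa, which encodes the DNA-binding part of GABP, averaged 19.5 against 19.7 FPKM.

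The products that depend on the mitoribosome meet nuclear partners, and those genes were far more abundant. Nuclear respiratory chain and ATP synthase genes had a median level of 71.7 FPKM, and cytosolic ribosomal protein genes 343.9 (large) and 375.2 FPKM (small), each set found by symbol pattern. No symbol matched the pattern used for the genes that mitochondrial DNA encodes, so those were not examined. Of 75 respiratory chain genes 56 had values above 0 (median 0.044), and 3 were higher at an unadjusted p under 0.05. For cytosolic ribosomal proteins 37 of 49 large subunit genes (median 0.041) and 26 of 33 small subunit genes (median 0.065) lay above 0, with 4 and 6 higher and 0 lower at an unadjusted p under 0.05. Over all genes tested 51.5% lay above 0, and 3.45% were higher and 2.14% lower at that p. None of these genes passed in limma (lowest adjusted p 0.881). As sums, the groups overlapped in all these lists. The respiratory chain genes summed to 6351, 6884 and 6273 FPKM in controls and 6757, 6832 and 6459 FPKM with BHB. Large cytosolic subunit genes summed to 15586, 16414 and 15020 FPKM in controls and 16228, 16443 and 15776 FPKM with BHB. In each list Control 2 lay above BHB 1 and BHB 3, while Control 1 and Control 3 lay under all BHB libraries. Whether these lists differ from the mitochondrial ribosomal genes was not tested.

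**Figure D5:**
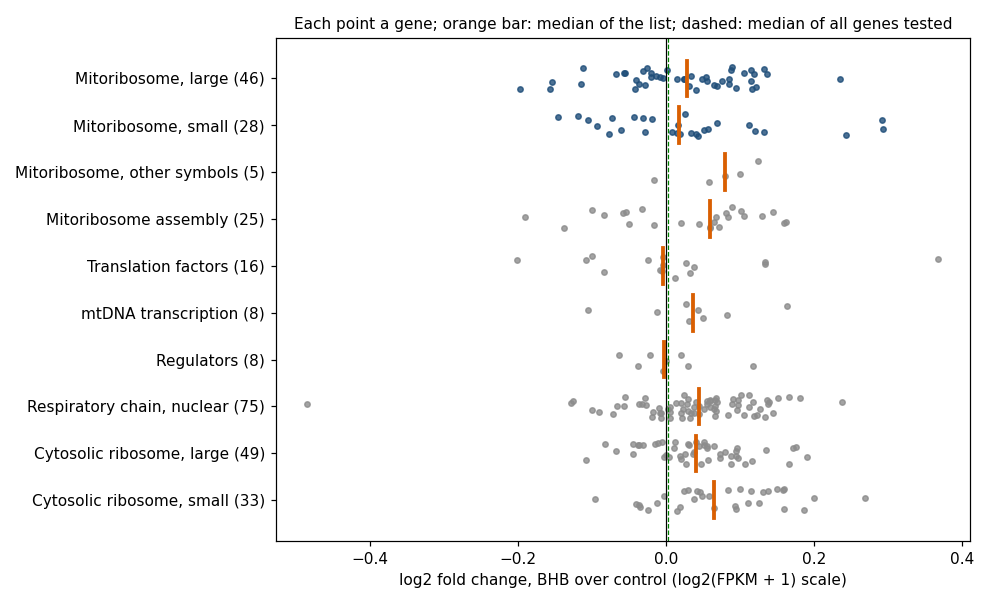
Log2 fold change of BHB over control on the log2(FPKM + 1) scale, a point per gene, for the 46 large and 28 small subunit genes (blue) and 8 related lists (grey). Orange bars are list medians, which lie between -0.0043 and 0.080, and the dashed line is the median of all genes tested, 0.0029.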

How the data were processed

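Poly(A) RNA of 3 control and 3 BHB libraries was sequenced, and FPKM per gene was what the authors deposited. The submitters' processing notes name bcl2fastq 2.0, HISAT2, StringTie and DESeq2 among the tools and rn6 as the build, without roles or settings. Libraries were grouped by their titles. FPKM was transformed as log2(FPKM + 1), a scale that understates changes of low genes. The 12373 genes reaching 1 FPKM in 3 libraries were fitted with limma 3.58.1 in R 4.3.3 (eBayes with trend, two-sided, Benjamini-Hochberg over all genes tested, threshold 0.05). No counts were given, so the depth is unknown. The members, lists and promoter motifs were chosen with earlier results of these data known.

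Members were named by rule: any that passed, the 4 smallest p per subunit and direction, the 3 highest and lowest levels and the largest spread per subunit, and members of lists of ribosomal sites. In related lists up to 2 genes with the smallest p were allowed; Nrf1 and Gabpa, with values, and the head-to-head pairs were chosen after their values were seen, as were Mrps14, Mrpl32, Mrpl36 and Mrpl44. The fit was tested on 20 simulated data sets with normal noise. In each, a small share of genes was given log2 changes of 0.25 to 1.5. There the fit recovered 21% of genes given a log2 change of 0.25 and 86.1% of those given 0.5. Of its calls 5.62% were false. Most changes of 0.25 were thus missed in the simulated data. The adjusted p depends on how many other genes change. The recovered shares therefore need not hold for the real data, where 7 genes passed. Alternatives covered the pseudocount, filter, scaling, spread model, replicate block, single libraries and subunit assignment.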

Additional observations from a re-analysis of the deposited data

How the results depend on the processing

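No member and no gene of the related lists passed in any of the 16 refits, where the lowest adjusted p was 0.426 for members and 0.611 for the lists. Leaving out a library gave 5 to 10 members at an unadjusted p under 0.05 (5 without Control 1), and medians of -0.0039 to 0.045 for the large and -0.019 to 0.060 for the small subunit, with 22 to 33 and 13 to 18 genes above 0. Among genes with at most 6 decimals, an alternative added after seeing the data, the large subunit median was 0.054 and 8 of 14 small subunit genes lay above 0, since fewer were tested. Counting Mrps30 and Mrps18a with the large subunit and leaving out Mrps36 gave 28 of 48 and 15 of 25 above 0. Of 283 log2 fold changes of 18 named members under alternatives, 279 kept their direction and 4 turned: Mrps18a (0.019 without BHB 1, 0.010 without Control 2; range -0.061 to 0.019 without a library) and Mrps18b (0.025 and 0.011; range -0.080 to 0.025). Replicate numbers were not taken as pairs: r between deviations of same-numbered libraries was -0.0899, 0.164 and -0.151, and only those numbered 2 correlated best with each other (Control 3 with BHB 1 had 0.203, Control 1 with BHB 3 0.186). With the replicate block 0 members passed and 7 had an unadjusted p under 0.05, with 27 large and 17 small subunit genes above 0. That block followed the replicate numbers, and pairs under other numbers were not tested. The share of all genes at an unadjusted p under 0.05 is not given here for the refits. The member counts at that p in the refits therefore have no background beside them. Over all genes 7 passed, against 2 with the block, 4 without the eBayes trend and 2 among genes with at most 6 decimals. Scaling libraries to equal sums moved the share of all genes above 0 from 51.5% to 44.1%, and the medians to 0.012 (large, 25 of 46 above 0) and 0.0017 (small, 15 of 28 above 0). Read depth is unknown.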

Other observations

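Of the 60 members with a RefSeq promoter entry, 18 (30.0%) had a head-to-head neighbour whose start lay within 1000 bases, against 16.5% of the entries of genes tested. Of the 16 neighbours that were tested, counting both Mrpl46 and Mrps11, 1 had an unadjusted p under 0.05 in limma and 0 passed. The gene was Ptcd2, a mitochondrial RNA-binding protein gene with its start 91 bases from that of Mrps27, whose level was 3.73 ± 0.900 FPKM (SD) in the 3 controls against 2.70 ± 0.387 FPKM (SD) in the 3 BHB libraries. In 9 of the 16 the log2 fold changes had the same sign, with the pair of Mrpl46 and Mrps11 counted from both sides. Gga3, an adaptor of vesicle transport that starts 269 bases from Mrps7, averaged 7.80 ± 0.169 FPKM (SD) in the 3 controls against 7.62 ± 0.865 FPKM (SD) in the 3 BHB libraries. Its log2 fold change was -0.03, beside 0.24 for Mrps7. Ndufb5, a complex I subunit gene 244 bases from Mrpl47, had 0.10 beside 0.09. Fau, which encodes a cytosolic ribosomal protein fused to a ubiquitin-like domain, lies 186 bases from Mrpl49 and averaged 227.3 FPKM in controls against 241.3 FPKM under BHB, where Mrpl49 averaged 46.9 against 47.6 FPKM. These neighbours were named after their values were seen.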
